A study of Mus musculus with 20 samples.

Results

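ADAM and ADAMTS proteases were examined in RNA from mouse liver. Genes were taken as members if the deposited table listed them as protein coding, if their name was Adam, Adamts or Adamtsl followed by a number, and if their FPKM (fragments per kilobase of gene, scaled to the fragments assigned to genes in a library) was above 0.1 in at least 5 of 20 libraries. The members were therefore chosen on measured levels over the same libraries that are compared below. Of 57 genes with such a name, 33 passed: 14 of 33 ADAM genes, 14 of 19 ADAMTS genes and all 5 ADAMTS-like genes, out of 38924 genes in the table.

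Male wild type (WT) and TSP-1 knockout mice, both labelled as C57/BL6 in strain background and given as C57BL/6J for WT in the methods, were bought at 5 weeks of age, kept for 1 week and fed control chow or CDAHFD for 12 weeks. CDAHFD is a high fat diet without choline, in which L-amino acids replace protein, and is a dietary model of steatohepatitis with fibrosis. Each group held 5 mice with 1 library each: WT on control diet (NDWT), TSP-1 null on control diet (NDKO), WT on CDAHFD (HFWT) and TSP-1 null on CDAHFD (HFKO). The knockout line came from a commercial repository and carries a germline null allele of Thbs1, the gene of thrombospondin-1 (TSP-1), so the loss is not limited to a cell type. Libraries held 15641545 to 23276322 assigned fragments, and 3 fragments on a gene of 1 kb correspond to 0.129 to 0.192 FPKM, a floor that covers counting error only. Albumin, the main secreted protein of hepatocytes, lay between 16870 and 34843 FPKM in every library.

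Thbs1 was read first, as a check of the genotype labels. Its FPKM was 0.197 ± 0.103 (NDWT), 1.30 ± 0.390 (NDKO), 4.62 ± 1.22 (HFWT) and 3.44 ± 0.547 (HFKO) (SD, n = 5 each). On the control diet the libraries labelled TSP-1 null ran from 0.986 to 1.895 and those labelled WT from 0.058 to 0.326, so the gene level goes against the labels there. On CDAHFD the ranges were 3.46 to 6.099 in libraries labelled WT and 3.048 to 4.398 in those labelled TSP-1 null, which overlap. Which part of the gene the fragments cover cannot be read from gene totals. Groups are named below as labelled, and every direction of a genotype difference rests on those labels. So do the diet comparisons within a genotype and the interaction, since the labels set which control group each one uses.

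ADAM proteins are membrane-anchored proteins with a metalloproteinase domain and a disintegrin domain. The active ones cut the ectodomains of other cell surface proteins and so release growth factors, cytokines and receptors. ADAMTS proteins are secreted, carry thrombospondin type 1 repeats like those of TSP-1, and cut matrix and plasma proteins such as procollagens, large proteoglycans and von Willebrand factor. ADAMTS-like proteins have the repeats without the protease domain and bind to microfibrils of the matrix. In injured liver, these families are known from work on stellate cells, leukocytes and matrix turnover.

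The zinc-binding site of the protease domain is needed for cleavage, so its coding sequence is shown for the members with the largest diet changes and the highest levels. The site was searched in the longest coding sequence of each gene in GENCODE M21 (GRCm38), as a histidine and a glutamate in a row followed by further histidines at the fifth and the eleventh codon. It was present once in 9 of 14 ADAM members, in 14 of 14 ADAMTS members and in 0 of 5 ADAMTS-like members. The ADAM members without it were Adam2, Adam4, Adam11, Adam23 and Adam32. Each line gives 33 bases of coding strand, 5′ to 3′, with the histidine and glutamate codons and the eighth codon in capitals.
Adam8: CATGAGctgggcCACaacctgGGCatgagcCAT
Adam15: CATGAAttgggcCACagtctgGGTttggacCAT
Adam9: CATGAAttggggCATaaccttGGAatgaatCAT
Adam10: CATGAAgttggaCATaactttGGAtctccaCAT
Adamts2: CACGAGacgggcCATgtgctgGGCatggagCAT
Adamts14: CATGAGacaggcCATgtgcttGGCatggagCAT
Adamts5: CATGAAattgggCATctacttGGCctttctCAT
Adamts7: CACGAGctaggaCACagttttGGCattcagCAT
Adamts12: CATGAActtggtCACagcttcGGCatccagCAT
Adamts9: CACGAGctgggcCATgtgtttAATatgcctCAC
Adamts15: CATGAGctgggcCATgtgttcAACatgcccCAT

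The eighth codon encoded glycine in 9 of 9 ADAM members with a site and in 10 of 14 ADAMTS members. In the other 4 ADAMTS members, which are Adamts1, Adamts4, Adamts9 and Adamts15, it encoded asparagine. These 4 genes belong to the group that cleaves the large proteoglycans versican and aggrecan, whereas Adamts5 of the same group has glycine. On GRCm38, the 33 bases lie within exon 11 for Adam8 (chr7:139987893-139987925, minus strand), Adam15 (chr3:89344780-89344812, minus) and Adam9 (chr8:24990326-24990358, minus). They span the junction of exons 9 and 10 in Adam10 (chr9:70754296-70761585, plus), of exons 7 and 8 in Adamts2 (chr11:50775403-50776134, plus), Adamts14 (chr10:61225465-61227123, minus), Adamts7 (chr9:90179456-90180640, plus) and Adamts12 (chr15:11241529-11255564, plus), of exons 2 and 3 in Adamts5 (chr16:85878015-85887826, minus) and Adamts15 (chr9:30911255-30911690, minus), and of exons 8 and 9 in Adamts9 (chr6:92905285-92908493, minus). Adamtsl2 (ENSMUSG00000036040.8, chr2:27079379-27108981, plus) has no such site. A pattern of the thrombospondin type 1 repeat, a tryptophan and 2 cysteines at fixed spacing, was found 3 times in Thbs1, 1 to 10 times in each ADAMTS member, 1 to 8 times in each ADAMTS-like member and in 0 of 14 ADAM members.

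Levels were compared with limma on log2(FPKM + 0.1), fitted over every gene that passed 0.5 FPKM in 5 or more libraries. A gene was called at a Benjamini-Hochberg FDR under 0.05 over all tested genes and an absolute log2 fold change (log2FC) above 0.58, two-sided. Of the 33 members, 24 were in this fit. The other 9 (Adam1a, Adam2, Adam4, Adam12, Adam32, Adamts3, Adamts6, Adamts16 and Adamtsl3) were read from a second fit over the 18490 genes that passed 0.1 FPKM in 5 or more libraries. Values are FPKM in replicates 1 to 5 of a group, or means ± SD (n = 5).

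CDAHFD was compared with the control diet to see how the family moves in fatty, fibrotic liver. Most members rose with the diet in both genotypes. In WT, 21 of the 24 members in the fit were higher and 0 were lower on CDAHFD, where 44.1% of all 14524 tested genes were called higher and 4.62% lower. In TSP-1 null livers, 22 of 24 were higher and 0 lower, where 41.9% and 4.00% of all genes were. The 21 members called in WT were all called in TSP-1 null livers, Adam11 was called in TSP-1 null livers only, and Adam9 and Adamts13 in neither. The median log2FC of the 24 members was 2.24 in WT and 1.91 in TSP-1 null livers, beside 0.53 and 0.50 over all genes tested. These counts are a description, because a member can pass the limits through CDAHFD libraries alone. Of the 24, 11 had fewer than 5 control libraries above 0.5 FPKM and so were bound to be higher on CDAHFD. They were Adam8, Adam19, Adam33, Adamts4, Adamts5, Adamts9, Adamts12, Adamts14, Adamts15, Adamtsl1 and Adamtsl5. Of the 13 that passed through control libraries, 10 were called higher in WT and 11 in TSP-1 null livers.

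The unequal counts of higher and lower genes depend on how libraries are scaled. With median of ratios scaling the median of all genes moved from 0.53 to -0.01 in WT, and 3299 genes were called higher and 2242 lower. With quantile normalization it moved to -0.09, and 2514 genes were called higher and 2562 lower, beside 6412 and 671 on FPKM as deposited. Of the 24 members, 18 were called higher and 0 lower in WT under the former scaling, and 18 higher and 1 lower under the latter. In TSP-1 null livers the counts were 19 and 0, and 17 and 1. The median log2FC of the members was 1.72 in WT and 1.51 in TSP-1 null livers with median of ratios scaling, and 1.02 and 0.97 with quantile normalization. For the 24 members, calls lost under a scaling are given with each gene below. Members read from the second fit only were not examined under either scaling.

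Libraries from bulk tissue cannot tell more cells of a type from more RNA per cell. Markers of several liver cell types moved with the diet. All 8 stellate cell and myofibroblast markers were called higher in both genotypes, with a summed level of 20.5 to 27.5 FPKM (NDWT) and 68.8 to 129 (HFWT). Macrophage markers summed to 136 to 187 FPKM (NDWT), 126 to 220 (NDKO), 892 to 1197 (HFWT) and 546 to 1189 (HFKO). Of these 8 markers, 5 were higher and 2 lower in both genotypes, the latter being Clec4f and Timd4, which mark resident Kupffer cells. Cholangiocyte markers summed to 15.2 to 18.0 FPKM (NDWT) and 292 to 488 (HFWT), and 5 of 5 tested were higher, with Cftr under the limit. Neutrophil markers summed to 1.92 to 6.09 and 24.6 to 39.8 FPKM, with 4 of 4 tested higher, while Ly6g and Mpo were under the 0.5 FPKM limit. T and NK cell markers were higher for 5 of 6, B cell markers for 4 of 4 and endothelial markers for 2 of 8 in WT and 3 of 8 in TSP-1 null livers. Of 6 hepatocyte markers, none was called in WT and Cps1 was lower in TSP-1 null livers. Marker counts also moved with scaling. Macrophage, cholangiocyte and neutrophil counts were as above under both scalings, and 6 of 8 stellate cell markers stayed higher. Endothelial markers were 0 higher and 3 lower (Cdh5, Kdr and Tek) in WT, and 1 higher and 0 lower in TSP-1 null livers, under either scaling. All 6 hepatocyte markers were called lower in WT, and 4 in TSP-1 null livers, with median of ratios scaling, and 0 in either with quantile normalization. With quantile normalization, Cd79b was the 1 B cell marker still higher in WT, and 5 of 6 T and NK cell markers were higher there. In TSP-1 null livers 0 of both lists were higher and Cd4 was lower. With median of ratios scaling B cell markers stood at 3 of 4 (WT) and 0 of 4 (TSP-1 null), and T and NK cell markers at 5 and 4 of 6. The part of these cell types in the changes below was not tested.

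**Figure D1:**
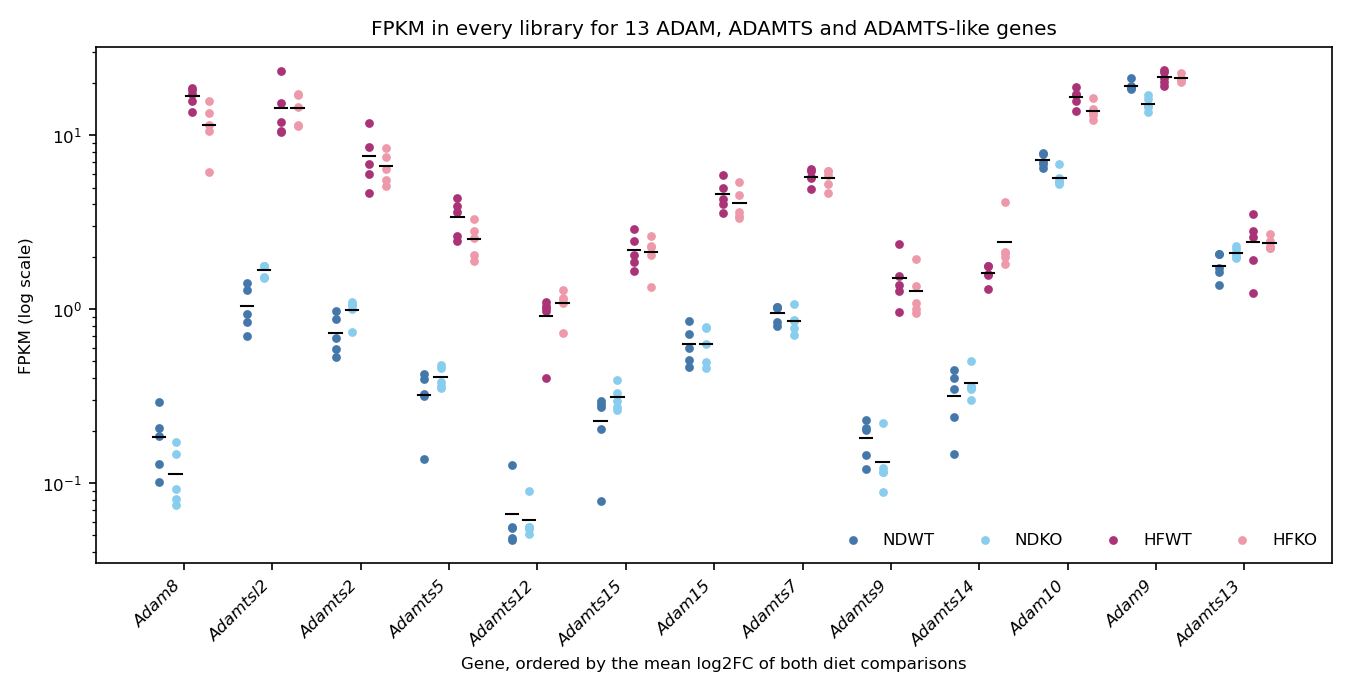
FPKM on a log axis in each of 20 libraries for 13 members, ordered by the mean log2FC of both diet comparisons. Points are libraries and black bars are group means (n = 5); Adam8 moved from 0.183 to 16.7 in WT at the left, whereas Adam9 stayed between 13.6 and 23.6 in every library.

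Among the ADAM sheddases, Adam8 had the largest change of the family. It encodes a protease of leukocytes that is known to be induced at sites of inflammation. Adam8 FPKM was 0.185, 0.129, 0.206, 0.101 and 0.292 (NDWT) and 0.146, 0.171, 0.092, 0.081 and 0.075 (NDKO), from 6 to 27 fragments per library. It reached 18.826, 15.71, 17.251, 18.245 and 13.671 (HFWT) and 10.527, 11.427, 13.473, 6.164 and 15.647 (HFKO). No CDAHFD library overlapped a control library, and the lowest of them, HFKO 4, was still above 6 FPKM. The log2FC was 5.93 ± 0.21 (SE, FDR 6.62e-14) in WT and 5.72 ± 0.21 (FDR 2.50e-13) in TSP-1 null livers. Adam8 passed the 0.5 FPKM limit in CDAHFD libraries alone, which fixed its direction. By group means Adam8 ranked 25 of 33 (NDWT) and 2 of 33 (HFWT), a ranking that uses values per length.

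Adam15, which cuts cadherins and binds integrins, was 0.72, 0.858, 0.466, 0.512 and 0.595 FPKM (NDWT) and 0.497, 0.788, 0.775, 0.458 and 0.628 (NDKO). On CDAHFD its FPKM was 5.925, 4.327, 4.038, 4.985 and 3.587 (HFWT) and 3.626, 3.36, 4.532, 3.425 and 5.38 (HFKO). The diets did not overlap, and the log2FC was 2.68 ± 0.18 (FDR 1.50e-10) in WT and 2.52 ± 0.18 (FDR 4.57e-10) in TSP-1 null livers.

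Adam9 and Adam10 had the highest control levels of all members. Adam10 is the main sheddase of Notch receptors. Its FPKM was 6.873, 6.44, 7.878, 6.998 and 7.785 (NDWT), 5.483, 5.393, 5.258, 5.641 and 6.796 (NDKO), 15.696, 17.369, 17.108, 13.806 and 18.887 (HFWT), and 13.063, 14.132, 13.556, 12.276 and 16.373 (HFKO). Every CDAHFD library was above every control library, with a log2FC of 1.19 ± 0.09 (FDR 1.46e-09) in WT and 1.26 ± 0.09 (FDR 7.74e-10) in TSP-1 null livers. Adam9, a broadly expressed sheddase, was 19.237, 18.614, 21.219, 18.989 and 18.546 FPKM (NDWT) and 23.27, 23.59, 21.423, 19.235 and 20.265 (HFWT), and these groups overlapped. In NDKO it was 14.797, 16.174, 14.534, 13.601 and 16.981 and in HFKO 21.195, 20.96, 21.039, 20.209 and 22.751, without overlap. Its log2FC was 0.15 ± 0.07 (FDR 0.0509) in WT and 0.48 ± 0.07 (FDR 4.32e-06) in TSP-1 null livers, the latter under the fold limit. The direction depended on scaling. With median of ratios scaling the Adam9 log2FC was -0.40 (FDR 6.85e-06) in WT and -0.05 (FDR 0.476) in TSP-1 null livers. With quantile normalization it was -0.17 (FDR 0.0277) and 0.12 (FDR 0.120), all under the fold limit.

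The other sheddases in the fit rose in both genotypes. Adam17, which releases tumor necrosis factor and ligands of the epidermal growth factor receptor, went from 3.13 ± 0.458 to 6.89 ± 0.371 FPKM in WT (log2FC 1.12 ± 0.11) and from 2.32 ± 0.135 to 6.14 ± 1.14 in TSP-1 null livers (1.35 ± 0.11). With median of ratios scaling its WT log2FC was 0.57, just under the fold limit, and with quantile normalization 0.47. Adam17 shares 311 exon bases on the opposite strand with Iah1, a gene with a mean of 75.2 FPKM, and whether fragments were counted by strand is not stated. Adam33, a sheddase of mesenchymal cells, went from 0.401 ± 0.0305 to 2.19 ± 0.728 FPKM in WT (log2FC 2.13 ± 0.22), and Adam19, which cuts neuregulin, from 0.297 ± 0.105 to 1.30 ± 0.186 (1.85 ± 0.19). For both, fewer than 5 control libraries passed 0.5 FPKM, which fixed their direction. Adam12, linked to activated stellate cells, was in the second fit only: 0.0708 ± 0.0270 FPKM (NDWT), 0.0708 ± 0.0285 (NDKO), 0.219 ± 0.0775 (HFWT) and 0.221 ± 0.0378 (HFKO), with a log2FC of 0.88 ± 0.20 and 0.92 ± 0.20. Only 1 control library of Adam12 passed 0.1 FPKM, which fixed its direction, and its log2FC depends on the pseudocount.

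Adam11 and Adam23 encode neuronal adhesion proteins without protease activity. Adam11 was 3.09 ± 1.08 FPKM (NDWT) and 3.09 ± 1.08 (HFWT), but 1.84 ± 0.444 (NDKO) and 3.81 ± 0.693 (HFKO). Its log2FC was -0.00 ± 0.24 (FDR 0.998) in WT and 1.03 ± 0.24 (FDR 0.000881) in TSP-1 null livers, and the test of that difference gave 1.03 ± 0.34 (FDR 0.156), which missed the threshold. Adam11 was not called in TSP-1 null livers with median of ratios scaling (log2FC 0.51, FDR 0.0799) or quantile normalization (0.30, FDR 0.323). With quantile normalization it was called lower in WT (-0.78, FDR 0.0112). Adam23 went from 2.00 ± 0.314 to 3.45 ± 0.852 FPKM in WT and from 2.12 ± 0.634 to 3.93 ± 0.463 in TSP-1 null livers (log2FC 0.73 ± 0.18 and 0.90 ± 0.18), and both calls were lost under both scalings.

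Adam1a, Adam2, Adam4 and Adam32, whose best known roles are in sperm and testis, were at 0.0352 to 0.501 FPKM by group means. Adam2 was the only member called lower: 0.200 ± 0.0779 FPKM (NDWT), 0.213 ± 0.134 (NDKO), 0.0544 ± 0.0254 (HFWT) and 0.0436 ± 0.0338 (HFKO), with a log2FC of -0.93 ± 0.27 (FDR 0.00541) and -1.06 ± 0.27 (FDR 0.00213). Its groups overlapped, and control libraries held 4 to 22 fragments. Adam2 passed the 0.1 FPKM limit in 8 control libraries and 0 CDAHFD libraries, which fixed its direction. Adam32, at 0 to 5 fragments in control libraries, lies 806 bases from Adam9. Adam1a and Adam4 are uncertain, since 63.1% of the 31-mers of Adam1a also occur in Gm42878 and 24.0% of those of Adam4 in Gm4787. No FPKM was available for Gm42878. Adam1a also shares 23.7% of its 31-mers, and 1805 exon bases on the same strand, with Mapkapk5. That gene had means of 5.25 FPKM (NDWT) and 7.31 (HFWT). In the second fit, over all 33 members, 28 were higher and 1 lower in WT, against 43.4% and 4.09% of its genes. In TSP-1 null livers 27 were higher and 1 lower, against 40.3% and 3.60%. Adam1a and Adamts6 were called in WT only, and Adam4 in neither genotype.

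**Figure D2:**
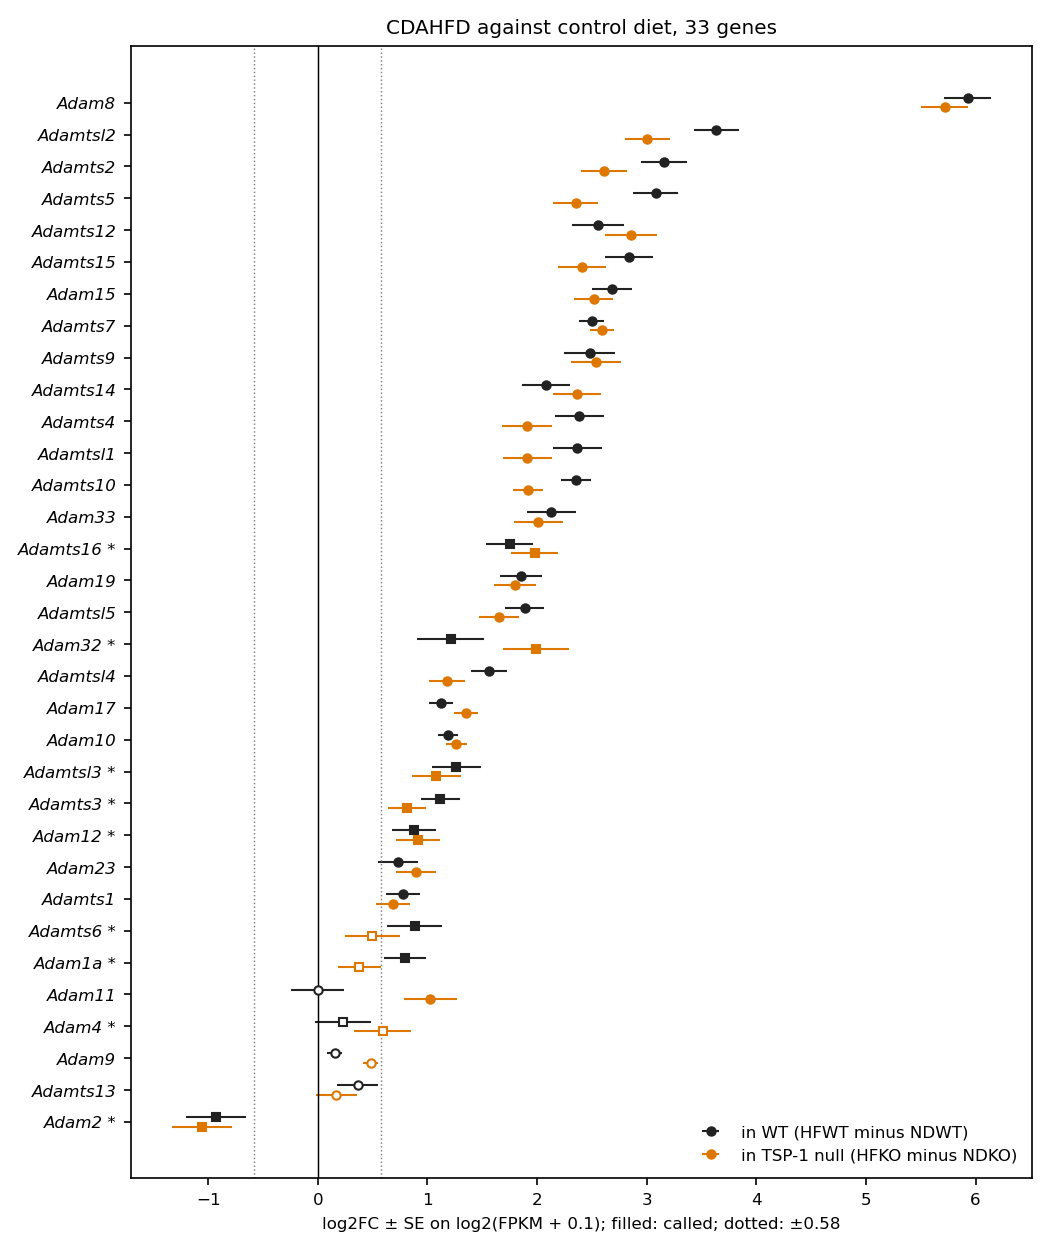
Log2FC ± SE of CDAHFD against the control diet for all 33 members, in WT (black) and TSP-1 null livers (orange). Filled symbols are called and open ones are not, squares with a star are read from the fit with the 0.1 FPKM limit, and dotted lines mark a log2FC of 0.58 in either direction; Adam8 stands apart at 5.93 and 5.72, and Adam2 alone lies below the lower line.

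Among the ADAMTS members, the procollagen N-proteinases remove the amino-terminal propeptides of fibrillar procollagens. Adamts2 was 0.98, 0.879, 0.68, 0.593 and 0.532 FPKM (NDWT), 1.007, 1.061, 1.094, 1.052 and 0.742 (NDKO), 11.777, 8.549, 6.869, 4.65 and 5.967 (HFWT), and 6.384, 5.554, 7.533, 5.121 and 8.476 (HFKO). The lowest CDAHFD library, at 4.65, lay far above the highest control library, at 1.094. Its log2FC was 3.16 ± 0.21 (FDR 1.15e-10) in WT and 2.61 ± 0.21 (FDR 2.02e-09) in TSP-1 null livers. Adamts14 was 0.446, 0.404, 0.346, 0.146 and 0.241 FPKM (NDWT), 0.345, 0.356, 0.504, 0.301 and 0.362 (NDKO), 1.781, 1.767, 1.576, 1.601 and 1.302 (HFWT), and 2.118, 1.808, 2.107, 1.986 and 4.13 (HFKO). The diets did not overlap (log2FC 2.08 ± 0.22, FDR 8.05e-08, and 2.37 ± 0.22, FDR 1.66e-08), and HFKO 5 was well above the rest of its group. Fewer than 5 control libraries of Adamts14 passed 0.5 FPKM, which fixed its direction. Adamts3, the third of these enzymes, was at 0.0224 ± 0.00924 FPKM (NDWT) and 0.168 ± 0.0464 (HFWT), with a log2FC of 1.12 ± 0.18 in the second fit, from 2 to 5 fragments per NDWT library, so that the value depends on the pseudocount.

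Matrix genes of the ADAMTS substrate list rose as well. Col1a1, Col1a2 and Col3a1, chains of type I and III collagen, had log2FCs of 5.26 ± 0.30, 4.20 ± 0.19 and 4.46 ± 0.21 in WT, and Fbn1, the fibrillin of microfibrils, 3.00 ± 0.19. Of 12 tested genes from a list of ADAMTS substrates and cofactors, 11 were higher in each genotype, beside 44.1% and 41.9% of all genes. Their median log2FC was 2.35 and 1.98, beside 0.53 and 0.50 over all genes. Lrp1, an endocytic receptor that clears ADAMTS enzymes, was not called. A gene of this or any other list can pass the 0.5 FPKM limit through CDAHFD libraries alone. With median of ratios scaling or quantile normalization, 9 of these 12 were higher in WT and 7 in TSP-1 null livers. Of all 14524 genes, 3299 (WT) and 3225 (TSP-1 null) were higher under the former, and 2514 and 2421 under the latter.

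All 5 members that cleave large proteoglycans were called higher in both genotypes, beside 44.1% and 41.9% of all genes. The limit of 0.5 FPKM fixed that direction for Adamts4, Adamts5, Adamts9 and Adamts15, which passed it in CDAHFD libraries alone. Adamts5 was 0.138, 0.422, 0.396, 0.324 and 0.316 FPKM (NDWT), 0.461, 0.354, 0.383, 0.363 and 0.477 (NDKO), 4.369, 3.929, 2.469, 2.646 and 3.625 (HFWT), and 2.81, 1.896, 2.577, 2.039 and 3.314 (HFKO). Its log2FC was 3.08 ± 0.21 (FDR 1.51e-10) and 2.35 ± 0.21 (FDR 7.50e-09), with no overlap of diets. Adamts15 was 0.297, 0.273, 0.284, 0.079 and 0.203 FPKM (NDWT), 0.392, 0.327, 0.298, 0.264 and 0.275 (NDKO), 2.897, 2.48, 1.648, 1.86 and 2.059 (HFWT), and 2.628, 1.337, 2.044, 2.287 and 2.319 (HFKO). It too had no overlap between diets (log2FC 2.84 ± 0.22, FDR 9.12e-10, and 2.41 ± 0.22, FDR 1.01e-08).

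Adamts9, which also acts at the base of cilia, was 0.23, 0.201, 0.206, 0.121 and 0.144 FPKM (NDWT), 0.089, 0.221, 0.115, 0.115 and 0.122 (NDKO), 2.377, 1.555, 0.961, 1.385 and 1.265 (HFWT), and 0.944, 1.087, 1.358, 1.002 and 1.952 (HFKO). Each CDAHFD library was above each control library (log2FC 2.48 ± 0.23, FDR 1.30e-08, and 2.54 ± 0.23, FDR 1.12e-08). Adamts4 went from 0.208 ± 0.0974 to 1.49 ± 0.407 FPKM in WT and from 0.265 ± 0.0635 to 1.28 ± 0.321 in TSP-1 null livers (2.39 ± 0.23 and 1.91 ± 0.23). Adamts1, the most abundant ADAMTS gene on the control diet, went from 3.98 ± 0.550 to 7.03 ± 2.03 FPKM in WT and from 3.45 ± 0.366 to 5.67 ± 1.01 in TSP-1 null livers (0.78 ± 0.15 and 0.69 ± 0.15), and neither call held under either scaling. Adamts1 and Adamts5 are neighbours on chromosome 16, 55.1 kb apart, with log2FCs of 0.78 and 3.08 in WT. Vcan, the gene of their substrate versican, was at 0.0118 ± 0.00512 FPKM (NDWT) and 0.217 ± 0.0994 (HFWT), and was called only in the second fit (log2FC 1.46 ± 0.18). Vcan passed the 0.1 FPKM limit in CDAHFD libraries alone, which fixed its direction, and its log2FC depends on the pseudocount.

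Adamts7 and Adamts12 cleave cartilage oligomeric matrix protein. Adamts7 was 0.795, 1.015, 0.846, 1.033 and 1.03 FPKM (NDWT), 1.064, 0.87, 0.705, 0.854 and 0.776 (NDKO), 6.212, 4.921, 5.751, 6.364 and 5.692 (HFWT), and 5.906, 4.665, 6.211, 6.193 and 5.27 (HFKO). Its groups were tight, and the log2FC was 2.5 ± 0.11 (FDR 9.23e-13) and 2.59 ± 0.11 (FDR 1.03e-12). Adamts12 was 0.055, 0.048, 0.126, 0.047 and 0.056 FPKM (NDWT) and 0.054, 0.056, 0.051, 0.09 and 0.056 (NDKO), from 5 to 14 fragments. On CDAHFD it was 1.046, 1.013, 0.981, 0.402 and 1.095 (HFWT) and 1.083, 1.138, 1.159, 0.73 and 1.296 (HFKO), where HFWT 4 was the lowest and still above all control libraries (log2FC 2.55 ± 0.24, FDR 1.24e-08, and 2.86 ± 0.24, FDR 3.26e-09). Adamts12 passed the 0.5 FPKM limit in CDAHFD libraries alone, which fixed its direction.

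Adamts13, the protease that cuts von Willebrand factor and is made by stellate cells, differed from most ADAMTS members. It was 2.067, 2.08, 1.631, 1.373 and 1.73 FPKM (NDWT), 2.312, 1.966, 2.063, 2.007 and 2.23 (NDKO), 3.544, 2.823, 2.614, 1.232 and 1.915 (HFWT), and 2.235, 2.246, 2.314, 2.722 and 2.451 (HFKO). HFWT held both the highest and the lowest library, and the diets overlapped. Its log2FC was 0.36 ± 0.19 (FDR 0.0902) in WT and 0.17 ± 0.19 (FDR 0.432) in TSP-1 null livers, and with quantile normalization it was called lower in TSP-1 null livers (-0.60, FDR 0.0107). Vwf, the gene of its substrate, rose from 0.640 ± 0.0968 to 1.45 ± 0.402 FPKM in WT (log2FC 1.05 ± 0.15) and from 0.702 ± 0.0483 to 1.48 ± 0.279 in TSP-1 null livers (0.97 ± 0.15). Neither Vwf call held under a scaling: its log2FC was 0.54 and 0.48 with median of ratios scaling, under the fold limit, and 0.02 and 0.07 with quantile normalization (FDR 0.893 and 0.685).

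Of the other ADAMTS members, Adamts10, which binds fibrillin, went from 1.61 ± 0.271 to 8.72 ± 1.96 FPKM in WT and from 1.75 ± 0.154 to 6.90 ± 0.776 in TSP-1 null livers (log2FC 2.35 ± 0.14 and 1.92 ± 0.14). Adamts6, its close relative, was at 0.260 ± 0.101 FPKM (NDWT) and 0.551 ± 0.0896 (HFWT), with a log2FC of 0.88 ± 0.25 (FDR 0.00398), and its log2FC in TSP-1 null livers was 0.50 ± 0.25 (FDR 0.0885). Adamts16 held 0 to 5 fragments (NDWT) and 0 to 2 (NDKO), and reached 0.307 ± 0.124 FPKM (HFWT) and 0.322 ± 0.0908 (HFKO). Its fitted log2FC, plotted with those of the other members, depends on the pseudocount and is not given as a value.

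Of the ADAMTS-like members, 4 of 4 in the fit were called higher in both genotypes, beside 44.1% and 41.9% of all genes. Adamtsl1 and Adamtsl5 passed the 0.5 FPKM limit in CDAHFD libraries alone, which fixed their direction. Adamtsl2 encodes a microfibril protein that binds the latent TGF-β binding protein and is known for a role in limiting TGF-β signals. Its FPKM was 1.414, 1.282, 0.942, 0.838 and 0.702 (NDWT), 1.77, 1.773, 1.78, 1.526 and 1.504 (NDKO), 23.313, 15.383, 11.917, 10.556 and 10.379 (HFWT), and 14.585, 11.318, 17.172, 11.496 and 16.971 (HFKO). All CDAHFD libraries were above 10 FPKM and all control libraries under 2, and the log2FC was 3.64 ± 0.20 (FDR 1.53e-11) in WT and 3.01 ± 0.20 (FDR 2.31e-10) in TSP-1 null livers. Its neighbour Adamts13, 69.8 kb away on chromosome 2, was not called in either genotype.

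Adamtsl4, which binds fibrillin, went from 1.03 ± 0.179 to 3.33 ± 1.00 FPKM in WT and from 1.55 ± 0.178 to 3.65 ± 0.475 in TSP-1 null livers (log2FC 1.56 ± 0.17 and 1.18 ± 0.17), the latter not called with quantile normalization (0.44). Adamtsl5 went from 0.255 ± 0.0913 to 1.20 ± 0.209 FPKM in WT (1.89 ± 0.18) and Adamtsl1 from 0.0540 ± 0.00781 to 0.715 ± 0.213 (2.37 ± 0.22). In TSP-1 null livers Adamtsl1 had a log2FC of 1.91 ± 0.22, which was not called with quantile normalization (0.49, FDR 0.0982) or with a pseudocount of 1 (0.54, under the fold limit). Adamtsl3 was at 0.0340 ± 0.0212 FPKM (NDWT) and 0.234 ± 0.107 (HFWT) (1.26 ± 0.22 in the second fit, likewise dependent on the pseudocount, from 3 to 9 fragments per NDWT library).

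**Figure D3:**
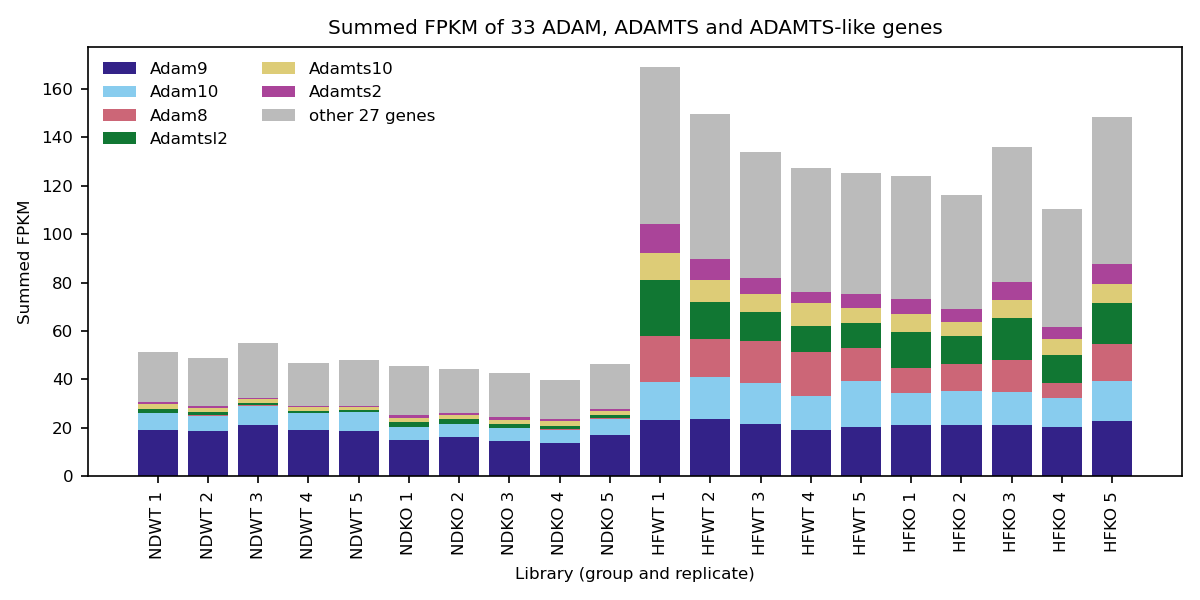
Summed FPKM of the 33 members in each of 20 libraries as stacked bars, with Adam9, Adam10, Adam8, Adamtsl2, Adamts10 and Adamts2 shown apart from the other 27 genes. Control libraries reach 39.9 to 54.9 in all and CDAHFD libraries 110 to 169; the Adam9 block is of like height throughout while the blocks of Adam8 and Adamtsl2 are visible on CDAHFD.

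The make-up of the family changed with its sum. The 33 members summed to a median of 49.0 FPKM (NDWT), 44.4 (NDKO), 134 (HFWT) and 124 (HFKO). Adam9 took 38.6 ± 1.24% of that sum in NDWT and 34.8 ± 1.77% in NDKO, but 15.4 ± 0.973% in HFWT and 16.9 ± 1.39% in HFKO. The share of Adam8 went from 0.364 ± 0.151% to 12.0 ± 1.61% in WT and from 0.257 ± 0.0921% to 8.87 ± 1.98% in TSP-1 null livers. Adamtsl2 took 2.07 ± 0.577%, 3.83 ± 0.348%, 9.91 ± 2.32% and 11.2 ± 1.14% in the same order of groups as above. Within groups, the median coefficient of variation over the 24 members was 25.4% (NDWT), 18.2% (NDKO), 24.4% (HFWT) and 19.7% (HFKO), and values ran from 4.38% for Adam9 (HFKO) to 50.5% for Adamts12 (NDWT).

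Genes that act with these proteases were read from lists of their inhibitors, partners and targets. Of 5 tested inhibitors, 4 were higher in WT and 3 in TSP-1 null livers, with 0 lower, beside 44.1% and 41.9% of all genes called higher. Timp1, Timp2 and Timp3 rose in both genotypes. Timp3, the inhibitor with the strongest action on ADAM and ADAMTS enzymes, went from 1.97 ± 0.0412 to 6.08 ± 1.93 FPKM in WT (log2FC 1.52 ± 0.18) and from 1.95 ± 0.259 to 5.71 ± 1.26 in TSP-1 null livers (1.48 ± 0.18). Timp1 had a log2FC of 5.18 ± 0.27 and Timp2 of 3.10 ± 0.14 in WT. Reck was called in WT only (0.59 ± 0.20, with 0.42 ± 0.20 in TSP-1 null livers), and Pzp, a plasma inhibitor of proteases, in neither. The Reck log2FC in WT was 0.07 with median of ratios scaling and -0.40 with quantile normalization, and Pzp was called lower in WT under the former and higher in TSP-1 null livers under the latter. Timp1, Timp2 and Timp3 were called higher under both.

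Of the partners that carry ADAM17 to the cell surface, Rhbdf1 rose by 2.27 ± 0.16, Rhbdf2 by 1.57 ± 0.18 and Frmd8 by 1.01 ± 0.11 on the log2 scale in WT. Tspan5 and Tspan14, tetraspanins that bind ADAM10, had log2FCs of 2.28 ± 0.18 and 0.92 ± 0.09. Tspan33, another tetraspanin of ADAM10, was lower in WT (-1.28 ± 0.16) and in TSP-1 null livers (-0.79 ± 0.16). The proprotein convertases Furin, Pcsk5, Pcsk6 and Pcsk7, which remove the inhibitory prodomain, were not called. In all, 6 of 12 tested partners were higher and 1 lower in WT, and 7 higher and 1 lower in TSP-1 null livers, with median log2FCs of 0.54 and 0.83. These shares lie near the background of 44.1% and 41.9% of all genes called higher. With quantile normalization 4 were higher and 4 lower in WT, and 4 higher and 2 lower in TSP-1 null livers: Pcsk5 was called lower in both (-0.82 and -0.59) and Pcsk6 in WT (-0.79), while Frmd8 (0.40) and Tspan14 (0.54) fell under the fold limit in WT. With median of ratios scaling Frmd8 (0.46) and Tspan14 (0.37) were under it too, and Pcsk6 was lower in WT (-1.09).

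Of 22 tested genes for proteins that ADAMs shed, 19 were higher and 1 lower in WT and 19 higher and 0 lower in TSP-1 null livers, with medians of 1.66 and 1.62. Of all genes, 44.1% and 41.9% were called higher and 4.62% and 4.00% lower. With quantile normalization, 15 of the 22 were higher in WT and 16 in TSP-1 null livers, and with median of ratios scaling 15 in each. The 4 with the lowest FDR in WT were Trem2, a receptor of lipid-laden macrophages (log2FC 6.15 ± 0.18), App, the amyloid precursor (2.27 ± 0.10), and the membrane-bound chemokines Cx3cl1 (3.74 ± 0.22) and Cxcl16 (2.31 ± 0.17). Met, the receptor of hepatocyte growth factor, was lower in WT (-0.65 ± 0.11) and was not called in TSP-1 null livers (-0.14 ± 0.11), where median of ratios scaling gave a call (-0.67). RNA levels do not measure shedding or protease activity.

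TSP-1 null and WT livers were then compared on each diet, to see whether the family differs with genotype. On the control diet, 1 of 24 members, Adamtsl2, was called, where 4.77% of all tested genes were. On CDAHFD 0 of 24 were called by limma, where 0.496% of all genes were. An unadjusted p under 0.05 was found for 4 of 24. The share of all genes at that unadjusted p was not counted, so no excess in the family can be read from it. With voom on fragments recovered from FPKM, 1 member was called on CDAHFD: Adam8, lower in libraries labelled TSP-1 null (FDR 0.0498). Voom called more genes there: 38 of all 14524 were higher and 94 lower, beside 24 and 48 in the main fit. The median log2FC of the members was -0.00 on the control diet and -0.17 on CDAHFD, beside -0.07 and -0.10 over all genes. In the second fit, 1 of 33 members was called on the control diet and 0 on CDAHFD, where 3.81% and 0.519% of its genes were.

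Adamtsl2 on the control diet, at the values above, ran from 1.504 to 1.78 FPKM in libraries labelled TSP-1 null, all above the 0.702 to 1.414 FPKM of those labelled WT, with a log2FC of 0.68 ± 0.20 (FDR 0.0346). The call is fragile: it was lost when NDWT 3, 4 or 5 or NDKO 1, 2 or 3 was left out (FDR 0.0612 to 0.0985, log2FC 0.56 to 0.66). It was also lost with a pseudocount of 1, without a filter and with voom, where the log2FC was 0.40, 0.68 and 0.73. On CDAHFD the Adamtsl2 log2FC between genotypes was 0.05 ± 0.20 (FDR 0.928). The test of the difference between diets gave -0.63 ± 0.29 (FDR 0.306).

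A further 4 members passed the FDR on the control diet below the fold limit. Without that limit, 504 of all 14524 tested genes were called higher and 1395 lower, beside 2 and 3 of the 24 members. Adamtsl4 lay higher in NDKO, with no overlap (log2FC 0.55 ± 0.17, FDR 0.0338). Adam9 lay lower in NDKO, again with no overlap (-0.35 ± 0.07, FDR 0.00314), as did Adam17 (-0.41 ± 0.11, FDR 0.0186). Adam10 was lower with some overlap (-0.33 ± 0.09, FDR 0.0262). Groups that do not overlap thus stood at 2 members in each direction on the control diet. How many of all tested genes lack overlap was not counted, so overlap is given here as a description only. Some of these FDRs depended on scaling. Adam10 missed the threshold with median of ratios scaling (FDR 0.0912) and quantile normalization (0.155), and Adam17 with the latter (0.0501). Adam9 passed under both, and Adamtsl4 was called with the former (log2FC 0.63, FDR 0.0106), where 348 of all genes were called higher and 329 lower. On CDAHFD, Adamts14 alone of the 24 had no overlap, higher in HFKO (0.51 ± 0.22, FDR 0.244), and in the second fit Adam32 lay higher and Adam1a lower in HFKO without overlap (FDR 0.186 and 0.105). Adam9 differed by -0.02 ± 0.07 (FDR 0.914).

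Adam8 on CDAHFD was 16.7 ± 2.08 FPKM (HFWT) and 11.4 ± 3.55 (HFKO), with overlap (log2FC -0.60 ± 0.21, FDR 0.162). Summed macrophage markers had medians of 1114 FPKM (HFWT) and 801 (HFKO) and ranges that overlapped, and their part in the Adam8 values was not tested.

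The interaction, the difference between the genotype contrasts of CDAHFD and control diet, was called by limma for 0 of 24 members, where 0.647% of all genes were called. Here 5 of 24 had an unadjusted p under 0.05, and the share of all genes at that level was again not counted. In the second fit 0 of 33 were called, where 0.422% of its genes were. The largest values were 1.03 ± 0.34 for Adam11 and -0.73 ± 0.29 (FDR 0.237) for Adamts5, and the smallest FDR of those given here was that of Adam9, at 0.33 ± 0.10 (FDR 0.113). With median of ratios scaling the Adam9 interaction was 0.35 ± 0.08 (FDR 0.0424), which passed the FDR but not the fold limit. With quantile normalization it was 0.29 ± 0.09 (FDR 0.130).

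**Figure D4:**
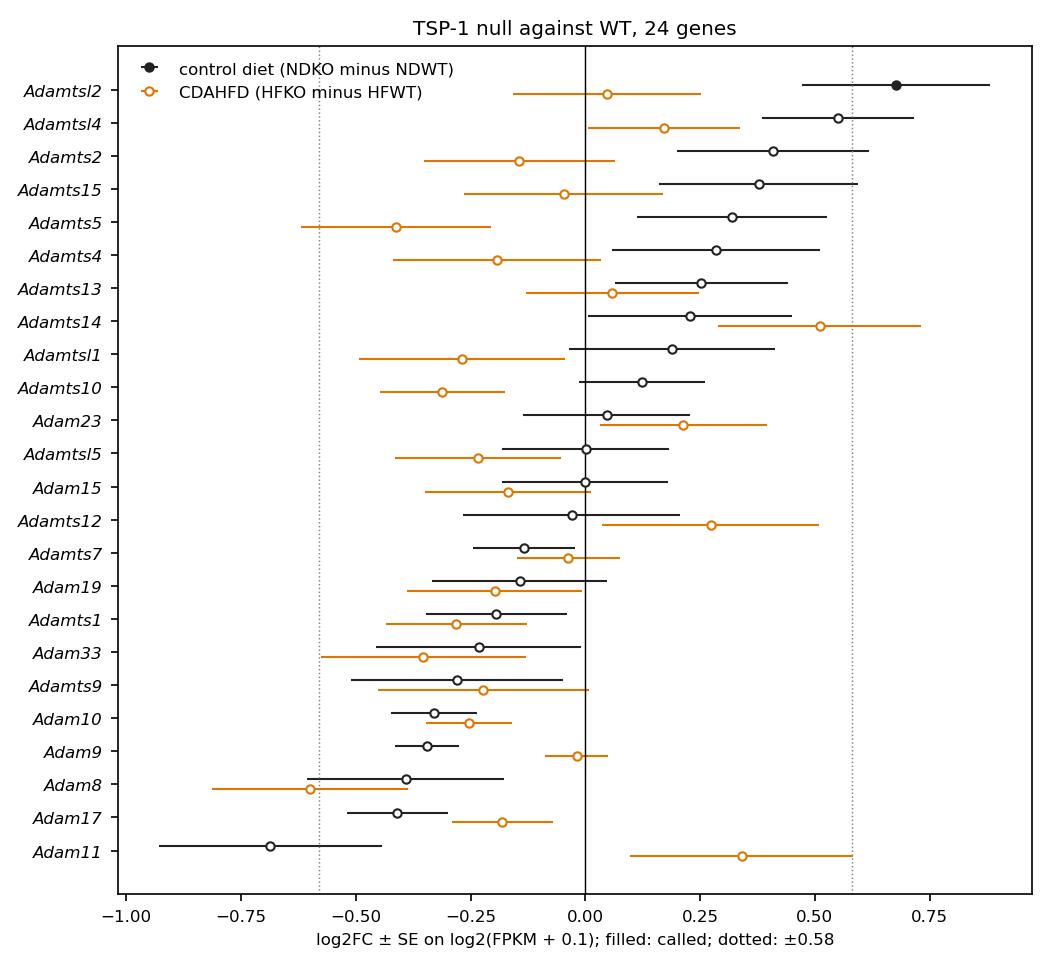
Log2FC ± SE of libraries labelled TSP-1 null against those labelled WT for 24 members, on the control diet (black) and on CDAHFD (orange), ordered by the former. Filled symbols are called and open ones are not, and dotted lines mark 0.58 in either direction; Adamtsl2 on the control diet, at 0.68, is the one filled symbol.

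Genes of the same name pattern that did not pass were also accounted for. Of the 24, 22 had no library above 0.1 FPKM and 9 were at 0 in all libraries. Just outside the limit, Adam22 passed 0.1 FPKM in 4 libraries with a maximum of 0.137, and Adamts8 in 3 with a maximum of 0.113. Just inside, Adam2 passed in 8 libraries, all on the control diet, and Adamts3 and Adamtsl3 in 9, all on CDAHFD. Of the 33 members, 20 were above 0.1 FPKM in all 20 libraries, 26 in at least 5 control libraries, and 7 passed only with CDAHFD libraries: Adam12, Adam32, Adamts3, Adamts12, Adamts16, Adamtsl1 and Adamtsl3.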

How the data were processed

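RNA was extracted with Trizol from the liver of 20 mice, and poly(A) libraries from a directional kit were sequenced with paired reads. Sources differ on the lobe, right medial in the deposited text and right lateral in the methods. Per the labels, the authors used STAR 2.5.2 and featureCounts of Subread 1.5.1, and deposited FPKM per gene without scaling between libraries. The listed build is a human one, but the coordinates are GRCm38: all 57 family genes overlapped the same gene in GENCODE M21. Whether counting used strand is not given in the sources used here. FPKM × length × library total came out whole for 100% of the values checked (tolerance 0.02 fragment beyond rounding), which gave fragments per gene, and no libraries were copies (chi-square per degree of freedom at least 12.1 within groups).

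Tests used limma 3.58.1 (lmFit, contrasts.fit, eBayes with trend) in R 4.3.3, 1 fit of all 20 libraries with a mean per group, and were tested on simulated data. Tables and figures used numpy 2.4.6, pandas 2.3.3 and matplotlib 3.10.9 in Python 3.11.15. P-values test differences of group means against the spread between mice within groups, pooled over all groups and moderated toward a trend across genes.

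The members, gene lists and cell type markers were chosen with earlier results of these data known. Values in every library are given for the 10 tested members with the largest mean diet log2FC, those called between genotypes, the 3 with the highest mean, and those over 1 FPKM called in neither diet comparison. From each list of inhibitors, partners, substrates or shed proteins, the 4 called genes with the lowest FDR in the WT diet comparison are named. Timp3, Rhbdf2, Vcan and Vwf are named as well. Cell type markers are given by counts and were not named by this rule. Any further gene named was picked with its values in view. Alternatives were pseudocounts, filters, scalings, voom, no fold limit, 2 groups alone, robust eBayes, a replicate block and each library left out.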

Additional observations from a re-analysis of the deposited data

Results flagged for a closer look

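Among 132 groups of 5 libraries (33 members in 4 groups), 14 held a library whose gap to its nearest neighbour, as a share of the group's range, was above 0.71; chance gives about 1 in 20 groups. The libraries above the rest were Adam1a in NDKO 2 (0.730), Adam32 in HFKO 4 (0.799), Adam4 in NDKO 1 (0.766), Adam10 in NDKO 5 (0.751), Adam9 in NDWT 3 (0.741), Adamts12 in NDWT 3 (0.886) and in NDKO 4 (0.872), Adamts9 in NDKO 2 (0.750), Adamts6 in NDWT 2 (0.750), Adamts14 in HFKO 5 (0.866) and Adamtsl1 in HFKO 5 (0.752). Those below the rest were Adamts12 in HFWT 4 (0.835), Adamts2 in NDKO 5 (0.753) and Adamtsl5 in HFWT 5 (0.734). The levels ranged widely: Adamts14 in HFKO 5 was 4.130 FPKM beside 2.118 in the next library, and Adam32 in HFKO 4 was 1.150 beside 0.439, while Adamts12 in HFWT 4 was 0.402 beside 0.981.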

How the results depend on the processing

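The diet counts, 21 of 24 members in WT and 22 of 24 in TSP-1 null livers, stayed within 1.5 times under every alternative run, and with any 1 library left out they were 21 and 22. The count between genotypes on the control diet (1) was 2 with a pseudocount of 0.01, 0 with a pseudocount of 1, 0 without a filter, 2 with median of ratios scaling, 0 with voom, 5 without a fold limit, and 0 to 3 with a library left out; on CDAHFD it was 1 with voom and otherwise 0. With quantile normalization the log2FC of Adam23 in WT became -0.065 (FDR 0.766) and that of Adamts13 in TSP-1 null livers -0.60 (FDR 0.0107). The log2FC of Adam9 in WT became -0.40 with median of ratios scaling and -0.17 with quantile normalization. Both scalings moved the median of all genes. The cause of the other changes was not tested. Of 3856 recomputed values, 26 lost and 14 gained a call. Replicate numbers did not pair libraries: over 30 pairs with the same number, correlations of deviations from group means were -0.13 to 0.08, and 6 libraries matched best with their own number. With the replicate as a block the counts were 21, 22, 1, 0 and 0, as without it. Low control counts limit the folds of members such as Adam8 and Adamts12.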
